A study of Arabidopsis thaliana with 4 samples.

Results

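The superfamily annotated as bifunctional inhibitors, lipid transfer proteins and seed storage 2S albumins was followed in Arabidopsis thaliana seedlings, and 107 of the 33602 genes in the deposited table carry exactly that description. The members were chosen by their description text and by no measured value. The superfamily was, however, picked with the genotype differences of these data already known, so the counts of changed members below are a description and carry no test of the superfamily. Seedlings of the jmj28-3 line (2 libraries) were compared with wild-type seedlings of accession Col-0 (WT, 2 libraries). All plants were seedlings aged 12 days, raised in long days on MS medium with sucrose, and polyadenylated RNA was sequenced. JMJ28 encodes a jumonji-domain protein of the histone demethylase kind, and the lesion in jmj28-3, which stands for the mutant by 1 line, is not given in the labels.

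Proteins of this superfamily are typically small and secreted, though the 107 coding sequences here ran from 87 to 1480 codons (median 124). Most share a fold held together by disulfide bonds between paired cysteines, with a hydrophobic cavity that in many members binds lipids. Type I and type II lipid transfer proteins are short. The proteins called LTPG carry a tail that is replaced by a GPI anchor and act in export of cuticle or suberin lipids, and hybrid proline-rich proteins such as EARLI1 join a proline-rich wall-binding start to the cysteine domain. DIR1 is needed for the long-distance signal of systemic acquired resistance, the immunity that spreads from an infected leaf. The 2S albumins proper are storage proteins of seeds, and some lipid transfer proteins are made only in anthers.

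Values were FPKM, fragments scaled by transcript length and by library size, so levels can be compared between genes of unequal length. Library sums ran from 983897 to 991510 FPKM. The depth in reads is unknown, and from the spacing of low FPKM values the other 3 libraries lay at 1 to 1.18 times the depth of WT replicate 1. JMJ28 itself (AT4G21430) had 3.65 and 3.33 FPKM in jmj28-3, against 3.80 and 5.54 FPKM in WT, and was not called (log2 change -0.32, SE 0.17, adjusted p = 0.327). Pearson correlations of log2(FPKM + 1) across genes were 0.989 within jmj28-3, 0.989 within WT and 0.977 to 0.98 between genotypes. Most genes that mark the labelled tissue were clearly present. The photosynthesis genes of the shoot list lay between 1553 and 27686 FPKM and the root gene PYK10 between 1128 and 1221 FPKM. The root gene MRN1 was low, at 0.18 to 0.48 FPKM, and the other genes of the root list lay between 14.1 and 115 FPKM. The marker genes of seed and of tapetum or pollen were at most 0.58 FPKM. Nothing in the labels tells whether the replicates were separate cultures, and the p-values therefore reflect only how far these libraries spread, which may be technical.

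Levels in the superfamily spanned a wide range. Of the 107 genes, 40 were listed at 0 in all 4 libraries, which is 37.4% of the superfamily, where 27.9% of all genes in the table were listed at 0 throughout. A further 9 genes had some signal but a mean under 0.5 FPKM, and the remaining 58 passed that filter and were tested. Just outside the filter were AT1G64235 with a mean of 0.498 FPKM and AT1G73890 with 0.46, and just inside were AT4G12530 with 0.613 and AT3G52130 with 0.663. Of the 58 tested genes, 15 had a mean of at least 100 FPKM, 28 lay between 10 and 100, and 15 lay under 10. Their median level was 36.7 FPKM, against 11.2 FPKM over all 20232 tested genes. The set that passed the filter is not the whole superfamily, and nothing is read from it about the silent members.

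**Figure D1:**
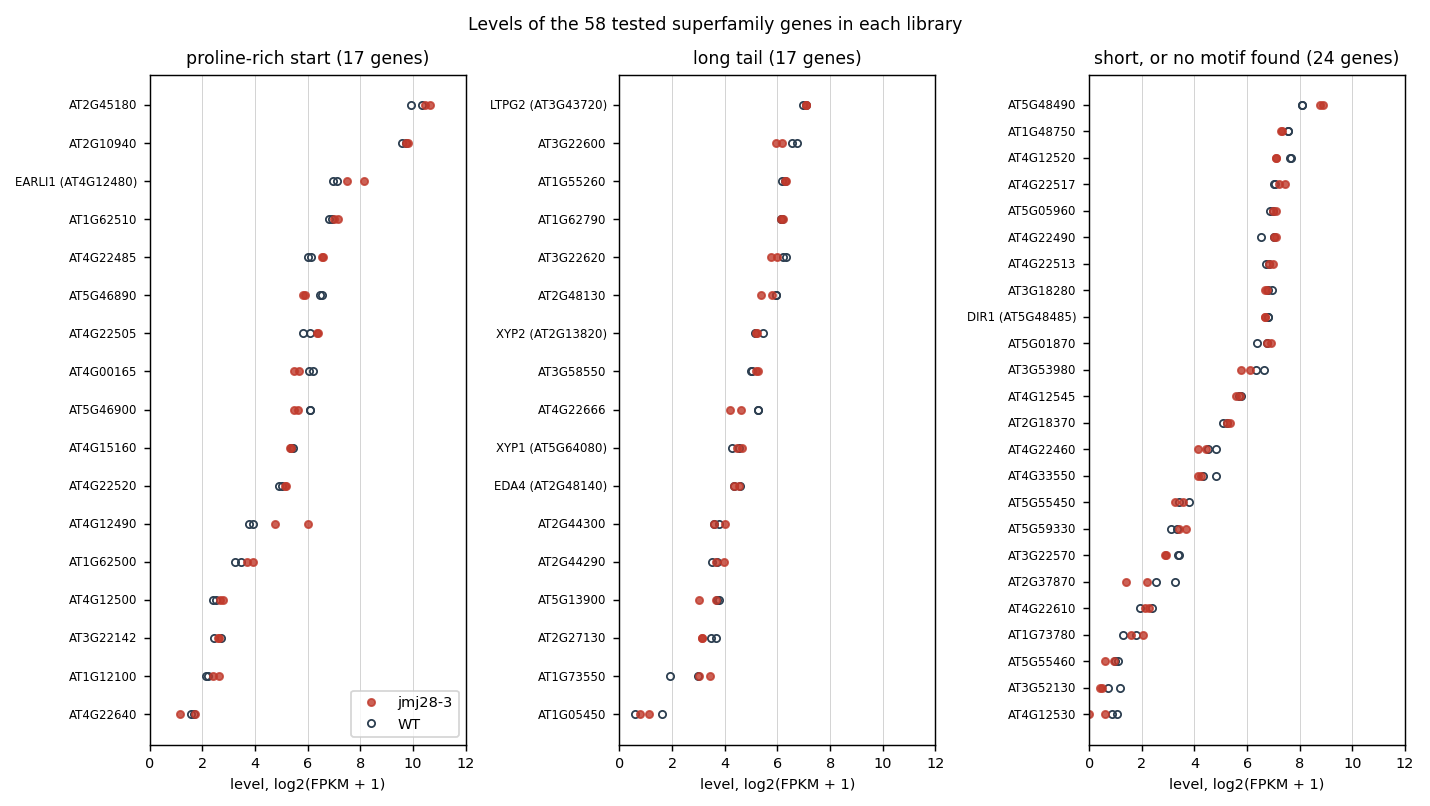
Level of each of the 58 tested genes, as log2(FPKM + 1) on the horizontal axis, with filled red points for the 2 jmj28-3 libraries and open dark points for the 2 WT libraries; genes run down the page by mean level within classes made from coding sequence. AT2G45180 and AT2G10940 stand at the top, and the groups separate clearly for AT5G48490 and AT4G12520.

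The genes listed at 0 included some known from reproductive tissue. The tapetum gene A9 (AT5G07230) and the anther gene AT4G28395 were listed at 0 in all 4 libraries, as was the type III gene AT5G52160. The true 2S albumin genes SESA1 to SESA5, which carry other descriptions and are no members, were listed at 0 in all 4 libraries except SESA4 at 0.22 FPKM in WT replicate 1. None of the 13 actin, tubulin, ubiquitin, elongation factor and other housekeeping genes looked at was listed at 0. Of the type II lipid transfer list, 11 of 14 genes were listed at 0 throughout, and the exceptions AT1G48750, AT3G18280 and AT1G73780 are described below.

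A pair of genes held much of the signal. AT2G45180 had 1386 and 1603 FPKM in jmj28-3, against 1287 and 963 FPKM in WT. AT2G10940 had 905 and 853 FPKM in jmj28-3, against 851 and 758 FPKM in WT. Both code for a proline-rich start before the cysteine domain. For each gene both jmj28-3 libraries lay above both WT libraries, where 22.4% of all tested genes did so. Neither passed (log2 change 0.42, SE 0.15, adjusted p = 0.158 for AT2G45180, and log2 change 0.13, SE 0.07, adjusted p = 0.328 for AT2G10940, limma). Their log2 changes moved with each library left out. They were 0.63 and 0.21 without WT replicate 1, and 0.21 and 0.05 without WT replicate 2. Without jmj28-3 replicate 1 they were 0.53 and 0.09, and without jmj28-3 replicate 2 they were 0.32 and 0.17. The 10 genes with the highest means held 66.3% of the summed level of the superfamily. Next after the leading pair were AT5G48490, EARLI1, AT1G48750, AT4G12520, AT4G22517, LTPG2, AT5G05960 and AT1G62510, with means from 363 down to 124 FPKM. The summed level of the 107 genes was 0.565% and 0.583% of all FPKM in jmj28-3, against 0.534% and 0.494% in WT. With 2 libraries a genotype the smallest p of an exact permutation test is 0.33, so the sums are given as values.

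Between genotypes, jmj28-3 had 2 of the 58 tested members at higher and 8 at lower levels than WT by the threshold of 0.05 on the adjusted p (limma on log2(FPKM + 1), Benjamini-Hochberg over all tested genes). Of all 20232 tested genes 7.97% were called, 4.18% higher and 3.79% lower. Of the tested members 17.2% were called, 3.45% higher and 13.8% lower. Nothing is read from these shares, since the superfamily was picked with them known. The 48 others were not called. The median log2 change of the tested members was 0.03, against -0.03 over all tested genes. Both jmj28-3 libraries lay above both WT libraries for 18 tested members and below both for 22, where 22.4% and 32.7% of all tested genes did so. These counts depend on each library: leaving out jmj28-3 replicate 2 left 1 member higher and 0 lower, without jmj28-3 replicate 1 there were 3 and 4, without WT replicate 1 there were 1 and 2, and without WT replicate 2 there were 4 and 2. Over the whole table calls fell too, to 70 higher and 21 lower without jmj28-3 replicate 2, 215 and 123 without jmj28-3 replicate 1, 341 and 164 without WT replicate 1, and 398 and 156 without WT replicate 2, against 846 and 767 with all libraries. Such fits have 3 libraries and 1 residual degree of freedom.

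**Figure D2:**
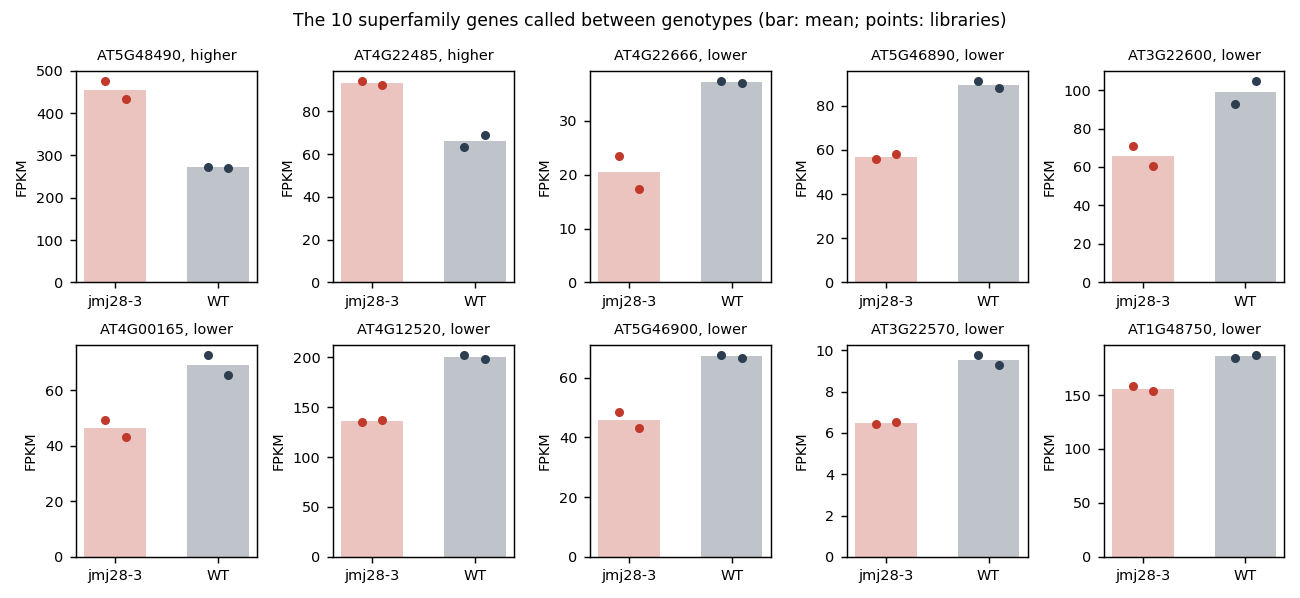
FPKM (vertical axis, from 0) of the 10 called genes in jmj28-3 (left, red) and WT (right, dark); bars are means of 2 libraries and points are the libraries. The 2 genes called higher come first. The 2 genotypes do not overlap in any panel, but the genes were picked by the adjusted p of these same libraries. Of all tested genes, 55.2% do not overlap.

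The largest called rise was that of AT5G48490, which lies next to DIR1 on chromosome 5 and is known as DIR1-like. AT5G48490 had 477 and 434 FPKM in jmj28-3, against 273 and 271 FPKM in WT. The libraries of each genotype lay close together and far from the other genotype, a 1.67-fold rise (log2 change 0.74, SE 0.06, adjusted p = 0.00383, limma). DIR1 (AT5G48485) had 101 and 100.5 FPKM in jmj28-3, against 111 and 108 FPKM in WT. Both jmj28-3 libraries of DIR1 were a little below both WT libraries, and the gene was not called (log2 change -0.12, SE 0.05, adjusted p = 0.206, limma). The call on AT5G48490 was made in each of the 4 fits that leave out a library (adjusted p up to 0.0451), and it was the only called member of which that was true.

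The coding parts of both genes show what members of the superfamily share and how near these neighbours are. Shown are the stretches from the first to the last codon of the 8-cysteine pattern, within the only exon and read on the coding (minus) strand of RefSeq TAIR10.1, at chr5:19647935-19648153 for AT5G48490 and chr5:19646320-19646538 for DIR1, with cysteine codons in capitals.
AT5G48490: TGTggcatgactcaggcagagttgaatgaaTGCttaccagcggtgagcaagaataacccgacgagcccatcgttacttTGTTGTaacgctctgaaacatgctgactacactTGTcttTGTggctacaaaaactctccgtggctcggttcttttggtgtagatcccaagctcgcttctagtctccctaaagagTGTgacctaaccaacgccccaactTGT
DIR1: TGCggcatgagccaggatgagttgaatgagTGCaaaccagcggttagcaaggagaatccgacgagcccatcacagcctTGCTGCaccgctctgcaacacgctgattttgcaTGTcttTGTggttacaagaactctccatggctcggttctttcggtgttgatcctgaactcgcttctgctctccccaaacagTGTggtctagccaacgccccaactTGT
In both, cysteine codons 3 and 4 are adjacent, and a single codon separates numbers 5 and 6. The windows were 219 bases long, with 177 identical bases and 42 differing ones. Over the whole coding sequence identity was 77%, and none of the words of 50 bases in the exons of either gene occurred elsewhere in the nuclear genome. The pattern of 8 cysteine codons was found in 101 of the 107 members and in 55 of the 58 tested ones.

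Sequence classes were drawn from the coding sequences after values had been seen, so they serve description only. Members with at least 40 codons after the cysteine pattern were set apart as having a long tail, the place of the GPI signal in LTPG proteins. Of the rest, members with at least 10% proline codons before the pattern were called proline-rich, and the others short. The shares to set beside their counts are those over all tested genes, 4.18% called higher, 3.79% called lower, 22.4% above and 32.7% below. Among 17 tested proline-rich members, 1 was called higher and 3 lower, and both jmj28-3 libraries lay above both WT libraries in 11 and below in 4. Among 17 tested long-tailed members, 0 were called higher and 2 lower, with 2 above and 6 below. Among 21 tested short members, 1 was called higher and 3 lower, with 4 above and 10 below. Median log2 changes were 0.20, -0.02 and -0.12 in these classes, whose difference was not tested.

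**Figure D3:**
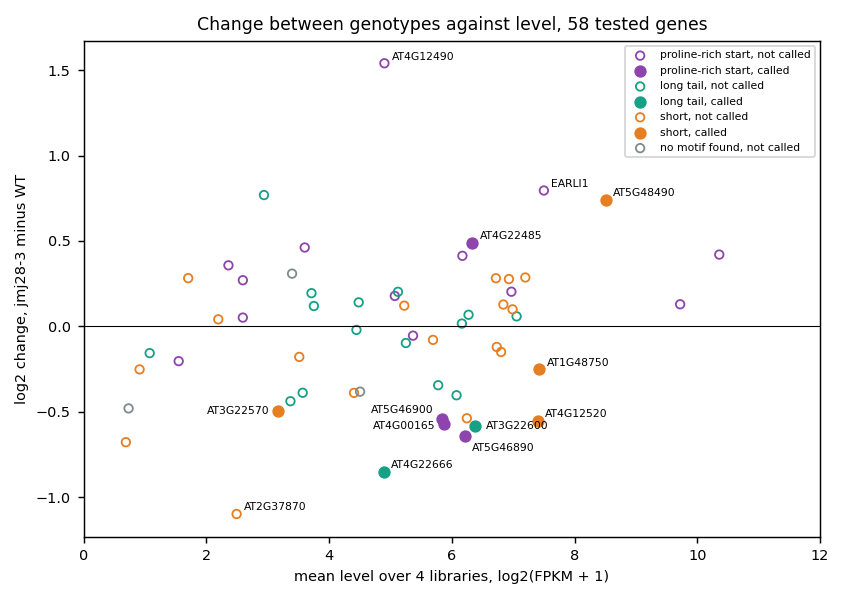
Log2 change (jmj28-3 minus WT, vertical axis) of the 58 tested genes against mean level as log2(FPKM + 1), coloured by sequence class, with called genes filled. AT5G48490 and AT4G22485 are the called rises, the 8 called falls lie between -0.85 and -0.25, and the largest positive value, that of AT4G12490 at 1.54, was not called.

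Among the proline-rich members, the called rise was AT4G22485, whose reading frame places 46.1% proline codons in a long start before the cysteine domain. AT4G22485 had 94.3 and 92.4 FPKM in jmj28-3, against 63.6 and 68.9 FPKM in WT, without overlap (log2 change 0.49, SE 0.06, adjusted p = 0.0117, limma). Its neighbour AT4G22505, of like build with 48.8% proline codons, had 82.2 and 80.2 FPKM in jmj28-3, against 54.8 and 67.3 FPKM in WT, and was not called (log2 change 0.41, SE 0.10, adjusted p = 0.0728). In AT4G22485, 5.16% of 50-base exon words occur more than once in the nuclear genome, copies within the gene itself included. The call on AT4G22485 was lost without either jmj28-3 library or WT replicate 1 (adjusted p up to 0.117) and in a fit with no variance trend.

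Within the array that holds them, 7 members lie within 20 kb on chromosome 4, from AT4G22460 to AT4G22520, and all 7 were tested. AT4G22490, AT4G22513, AT4G22517 and AT4G22520 had positive log2 changes from 0.13 to 0.29 and were not called, with adjusted p from 0.092 to 0.366. AT4G22460, at the end of the array, had 20.9 and 16.6 FPKM in jmj28-3, against 27.6 and 21.8 FPKM in WT (log2 change -0.38, SE 0.15, adjusted p = 0.201). AT4G22470, which lies inside the array and is described as a protease inhibitor and lipid transfer family protein, is no member. AT4G22470 had 5.86 and 11.2 FPKM in jmj28-3, against 1.30 and 1.01 FPKM in WT, a 7.37-fold rise at low levels (log2 change 2.09, adjusted p = 0.0143, limma). That call was lost without jmj28-3 replicate 2 or either WT library (adjusted p up to 0.0934).

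The EARLI1 array on chromosome 4, 7 members within 28.8 kb, held genes with fitted changes of both signs. EARLI1 (AT4G12480), a cell wall protein linked to defence priming and cold, had 180 and 281 FPKM in jmj28-3, against 137 and 122 FPKM in WT. AT4G12490 had 26.1 and 62.8 FPKM in jmj28-3, against 14.0 and 12.7 FPKM in WT. AT4G12500 had 5.39 and 5.82 FPKM in jmj28-3, against 4.73 and 4.23 FPKM in WT. For each of these genes both jmj28-3 libraries lay above both WT libraries, where 22.4% of all tested genes did so. None was called (log2 changes 0.80, 1.54 and 0.27, adjusted p = 0.0799, 0.0737 and 0.203, limma). For EARLI1 and AT4G12490 jmj28-3 replicate 2 stood well above replicate 1. In the exons of AT4G12490 and AT4G12500, 6.78% and 5.45% of 50-base words occur more than once in the nuclear genome. AZI1 (AT4G12470), the adjacent priming gene annotated under another description, likewise had 104 and 155 FPKM in jmj28-3, against 81.9 and 73.8 FPKM in WT (adjusted p = 0.0865). Without jmj28-3 replicate 1 the adjusted p of EARLI1 was 0.0356 and that of AT4G12490 was 0.0151, so both were then called higher. Without jmj28-3 replicate 2 their log2 changes were 0.48 and 0.92 and neither was called (adjusted p = 0.16 and 0.0744), nor was either called without a WT library (adjusted p from 0.219 to 0.26).

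AT4G12520, further along the same array, was called lower. With 8.9% proline codons before the cysteine pattern it lay just outside the proline-rich class. AT4G12520 had 136 and 137 FPKM in jmj28-3, against 202 and 198 FPKM in WT, and fell by 0.55 on the log2 scale (SE 0.05, adjusted p = 0.00412, limma). Its neighbour AT4G12510 was listed at 0 in all 4 libraries. Of the 50-base exon words, 58.1% in AT4G12520 and 51.8% in AT4G12510 occur more than once in the nuclear genome. The other words of AT4G12510 occur a single time, and the gene was still listed at 0. The coding sequences of both genes are 99.5% identical, so reads can be shared between them and the value of AT4G12520 may hold reads of both. The 8-cysteine stretches, at chr4:7421285-7421533 and chr4:7417420-7417668 on the minus strand of TAIR10.1, are shown because they make this plain, with cysteine codons in capitals.
AT4G12520: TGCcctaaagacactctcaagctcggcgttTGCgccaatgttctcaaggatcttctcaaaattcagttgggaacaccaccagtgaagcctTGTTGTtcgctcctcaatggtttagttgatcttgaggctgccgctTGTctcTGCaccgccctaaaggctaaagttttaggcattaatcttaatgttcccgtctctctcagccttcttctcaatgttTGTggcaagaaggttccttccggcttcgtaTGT
AT4G12510: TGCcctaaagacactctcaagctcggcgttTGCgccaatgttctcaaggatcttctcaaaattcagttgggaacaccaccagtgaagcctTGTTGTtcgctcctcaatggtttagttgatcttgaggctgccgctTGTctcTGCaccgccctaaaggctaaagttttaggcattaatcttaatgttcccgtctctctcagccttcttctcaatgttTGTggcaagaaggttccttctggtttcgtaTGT
Counted from 1 at the first base shown, with the base of AT4G12520 first, the differences are C237T and C240T. AT4G12530 was near the filter, with 0 and 0.51 FPKM in jmj28-3, against 0.84 and 1.10 FPKM in WT (adjusted p = 0.176), and AT4G12545 had 51.6 and 47.1 FPKM in jmj28-3, against 53.5 and 50.8 FPKM in WT (adjusted p = 0.549). The call on AT4G12520 was lost without jmj28-3 replicate 2 (adjusted p = 0.07) and made without any other library.

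**Figure D4:**
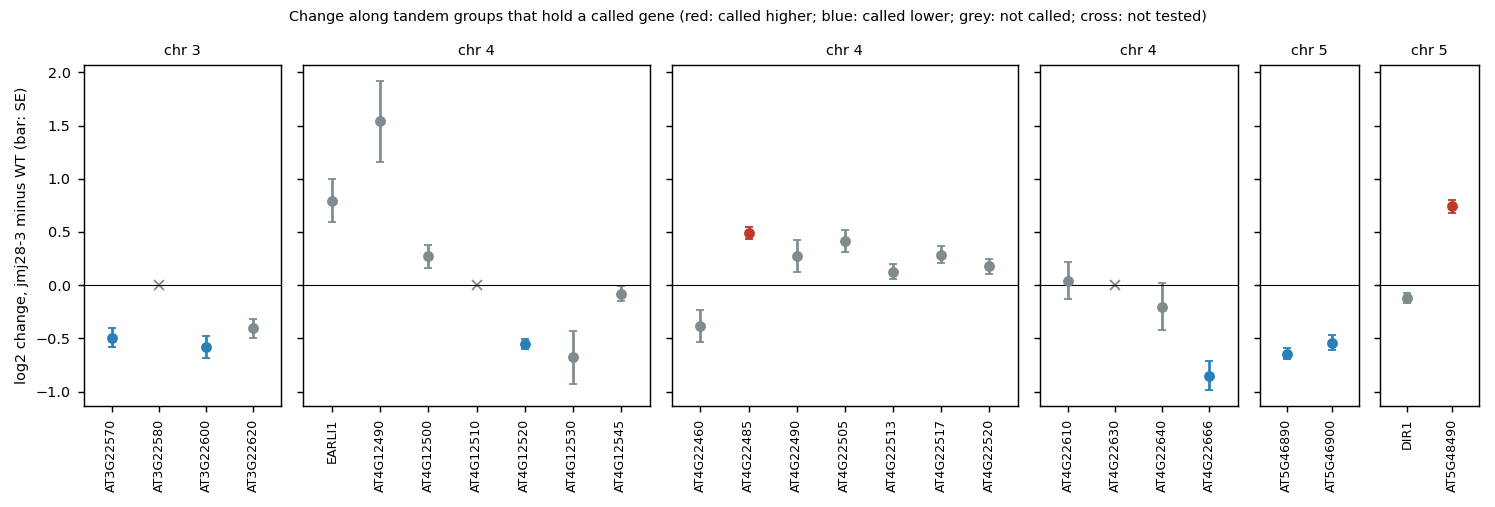
Log2 change (jmj28-3 minus WT, vertical axis, bars are standard errors) of members in gene order along the 6 tandem groups that hold a called gene; red is called higher, blue called lower, grey not called, and a cross, drawn at 0 by convention, not tested. In the EARLI1 array the genes at the left lie above 0 and AT4G12520 below, and both genes of the AT5G46890 pair lie below 0.

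A second pair of like sequence fell together. AT5G46890 had 56.1 and 58.0 FPKM in jmj28-3, against 91.4 and 87.9 FPKM in WT (log2 change -0.64, SE 0.05, adjusted p = 0.0044, limma). AT5G46900 had 48.7 and 43.2 FPKM in jmj28-3, against 67.7 and 66.7 FPKM in WT (log2 change -0.54, SE 0.07, adjusted p = 0.0147, limma). The genes lie within 4.2 kb on chromosome 5, and their coding sequences are 97.4% identical. Of their 50-base exon words, 26.8% and 22.5% occur more than once in the nuclear genome. The split of reads between these genes is therefore uncertain, and their values may not be independent of each other. The 8-cysteine stretches, at chr5:19036443-19036679 and chr5:19039960-19040196 on the minus strand of TAIR10.1, are given with cysteine codons in capitals.
AT5G46890: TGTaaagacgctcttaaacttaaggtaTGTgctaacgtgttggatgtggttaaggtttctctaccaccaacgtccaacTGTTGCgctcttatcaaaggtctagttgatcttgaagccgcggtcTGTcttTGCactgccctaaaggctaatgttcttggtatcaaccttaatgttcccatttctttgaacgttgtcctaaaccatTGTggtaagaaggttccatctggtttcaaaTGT
AT5G46900: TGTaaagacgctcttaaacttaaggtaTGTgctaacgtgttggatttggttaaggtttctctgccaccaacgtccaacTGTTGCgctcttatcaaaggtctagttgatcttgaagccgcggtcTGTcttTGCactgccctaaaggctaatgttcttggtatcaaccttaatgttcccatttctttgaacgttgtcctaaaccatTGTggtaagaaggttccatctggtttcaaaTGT
Counted from 1 at the first base shown, with the base of AT5G46890 first, the differences are G46T and A63G. The call on AT5G46890 was lost without jmj28-3 replicate 2 (adjusted p = 0.0671), and that on AT5G46900 without jmj28-3 replicate 2 or either WT library (adjusted p up to 0.103) and with no variance trend (0.0575).

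The third proline-rich gene that fell was AT4G00165, on chromosome 4. AT4G00165 had 49.4 and 43.1 FPKM in jmj28-3, against 72.6 and 65.6 FPKM in WT, without overlap (log2 change -0.57, SE 0.09, adjusted p = 0.0226, limma). Besides AT4G22485 and these 3, the 13 other proline-rich genes tested were not called. AT1G62500 had 12.1 and 14.1 FPKM in jmj28-3, against 8.34 and 10.1 FPKM in WT (adjusted p = 0.0898). AT1G62510, its tandem neighbour, had 140.0 and 126 FPKM in jmj28-3, against 120.1 and 111 FPKM in WT (adjusted p = 0.163). AT4G15160 had 40.1 and 39.0 FPKM in jmj28-3, against 41.9 and 40.3 FPKM in WT (adjusted p = 0.634). The call on AT4G00165 was lost in each of the 4 fits that leave out a library (adjusted p up to 0.154), with no filter (0.0568) and with no variance trend (0.0691).

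Among long-tailed genes, AT4G22666 had the largest called fall of the superfamily. AT4G22666 had 23.5 and 17.3 FPKM in jmj28-3, against 37.4 and 37.0 FPKM in WT, and was 1.82-fold lower (log2 change -0.85, SE 0.14, adjusted p = 0.026, limma). AT3G22600 had 71.1 and 60.3 FPKM in jmj28-3, against 92.6 and 105 FPKM in WT (log2 change -0.58, SE 0.10, adjusted p = 0.0302, limma). AT3G22620, near it on chromosome 3, had 61.7 and 52.7 FPKM in jmj28-3, against 78.4 and 73.2 FPKM in WT, and was not called (log2 change -0.40, SE 0.09, adjusted p = 0.0572). The call on AT4G22666 was lost without jmj28-3 replicate 2 or either WT library (adjusted p up to 0.141), and that on AT3G22600 in each leave-out (adjusted p up to 0.174). Both were also lost with no filter (adjusted p = 0.068 and 0.0728) and with no variance trend (0.0687 and 0.0831).

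LTPG2, the xylogen genes and AT2G48130, long-tailed genes with known lipid or wall roles, were not called. LTPG2 (AT3G43720), which helps to export cuticular wax, had 133 and 136 FPKM in jmj28-3, against 136 and 123 FPKM in WT (log2 change 0.06, adjusted p = 0.637). LTPG1, its partner annotated under another description, had 228 and 230.2 FPKM in jmj28-3, against 236 and 204 FPKM in WT. The xylogen genes XYP1 and XYP2, of vessel formation, had log2 changes of 0.14 and -0.10 (adjusted p = 0.546 and 0.658), and each overlapped between genotypes. AT2G48130, linked to suberin, had 55.1 and 40.2 FPKM in jmj28-3, against 60.3 and 59.8 FPKM in WT (log2 change -0.34, adjusted p = 0.223). In its exons, 21.2% of 50-base words occur more than once in the nuclear genome, copies within the gene itself included. AT1G73550, at low level and of no role given here, had 7.18 and 9.73 FPKM in jmj28-3, against 6.98 and 2.79 FPKM in WT (log2 change 0.77, SE 0.36, adjusted p = 0.263), a change set mainly by WT replicate 2.

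Short members with called falls included a type II lipid transfer gene. AT1G48750 had 158 and 154 FPKM in jmj28-3, against 184 and 187 FPKM in WT, a small but even difference (log2 change -0.25, SE 0.05, adjusted p = 0.0363, limma). AT3G18280, its relative in the type II list, had 107 and 103 FPKM in jmj28-3, against 109 and 124 FPKM in WT, and was not called (adjusted p = 0.282). AT1G73780, the third type II gene above 0, had 1.98 and 3.18 FPKM in jmj28-3, against 2.41 and 1.47 FPKM in WT. AT3G22570 had 6.45 and 6.51 FPKM in jmj28-3, against 9.78 and 9.28 FPKM in WT (log2 change -0.49, SE 0.09, adjusted p = 0.0306, limma). It opens the chromosome 3 array that also holds AT3G22600 and AT3G22620, while AT3G22580 between them was listed at 0. The calls on AT1G48750 and AT3G22570 were lost in each of the 4 leave-outs (adjusted p up to 0.23 and 0.196), and both were lost with no filter (0.0539 and 0.0662). Median-of-ratios scaling and a fit with no variance trend also ended that on AT1G48750 (adjusted p = 0.0572 and 0.133).

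Other short members named here were not called. AT2G37870 had the largest fitted decrease, with 3.53 and 1.66 FPKM in jmj28-3, against 4.77 and 8.57 FPKM in WT, and was not called (log2 change -1.10, SE 0.33, adjusted p = 0.119). AT3G53980 had 68.1 and 53.7 FPKM in jmj28-3, against 79.7 and 97.7 FPKM in WT (adjusted p = 0.0872). AT4G33550 had 17.8 and 16.7 FPKM in jmj28-3, against 19.2 and 27.2 FPKM in WT (adjusted p = 0.218). AT5G05960 had 136 and 125 FPKM in jmj28-3, against 117 and 127 FPKM in WT, and its libraries overlapped (adjusted p = 0.435). The short genes AT2G18370 and AT5G01870, of the type I kind, had log2 changes of 0.12 and 0.28 and were not called (adjusted p = 0.448 and 0.289).

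No gene of the root marker list was called with all 4 libraries and the filter at 0.5 FPKM. All 6 tested genes of the root marker list lay lower in both jmj28-3 libraries than in both WT libraries, where 32.7% of all tested genes did so (median log2 change -0.41). The 7 genes of the list summed to 1388 and 1321 FPKM in jmj28-3, against 1488 and 1456 FPKM in WT, most of it from PYK10, and none was at 0 throughout. CASP1, of the endodermal barrier, had 45.4 and 39.7 FPKM in jmj28-3, against 53.4 and 57.9 FPKM in WT (adjusted p = 0.0589), and was called where genes under a mean of 2 FPKM were dropped (adjusted p = 0.0495). The root hair gene RHS19 had 34.7 and 33.6 FPKM in jmj28-3, against 43.9 and 61.5 FPKM in WT (adjusted p = 0.0838), and passed without WT replicate 1 (log2 change -0.83, adjusted p = 0.0279). Without WT replicate 2 the log2 change of RHS19 was -0.35 (adjusted p = 0.105), and without a jmj28-3 library it was not called (adjusted p up to 0.342). For CASP1 and for RHS19 that was the only one of 12 alternatives with a call. In bulk seedlings, fewer cells of a type and less RNA per cell cannot be told apart, and the part of root tissue in the falls was not tested. In the shoot list the antenna gene LHB1B1 was called higher among 6 tested genes (adjusted p = 0.0217, limma). LHB1B1 had 2496 and 2511 FPKM in jmj28-3, against 1852 and 1553 FPKM in WT. The 5 others were not called, with log2 changes from -0.08 (RBCS3B) to 0.27 (CAB3). In the epidermis list PDF1 was called higher among 4 tested genes (adjusted p = 0.0345, limma). PDF1 had 209 and 203 FPKM in jmj28-3, against 167 and 174 FPKM in WT. The 3 others, ATML1, PDF2 and HDG2, overlapped between genotypes, with log2 changes of 0.05, -0.0035 and -0.01. Over all tested genes 4.18% were called higher. The call on LHB1B1 was lost without either jmj28-3 library, and that on PDF1 in each leave-out. Both were also lost with no filter (adjusted p = 0.0681 and 0.0581, limma) and with no variance trend (0.0757 and 0.125).

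Relatives outside the exact description and pathways served by these proteins were read from lists drawn up with earlier results known, where 4.18% of all tested genes were called higher and 3.79% lower. Of 9 tested type I genes, 2 of them members, LTP2 (AT2G38530) was called higher, with 97.5 and 111 FPKM in jmj28-3, against 61.8 and 67.7 FPKM in WT (log2 change 0.67, adjusted p = 0.0115, limma). LTP1 (AT2G38540, listed as LP1) was far more abundant, with 1207 and 1242 FPKM in jmj28-3, against 1164 and 1259 FPKM in WT, and overlapped. LTP3 (AT5G59320), not called, had 9.54 and 13.5 FPKM in jmj28-3, against 17.0 and 22.6 FPKM in WT. The call on LTP2 was lost without jmj28-3 replicate 2 or either WT library (adjusted p up to 0.1).

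Of 20 tested cuticle and wax genes, 2 were called higher and 0 lower (4.18% and 3.79% of all tested genes), with a median log2 change of -0.07. The risers were the regulators MYB30 with 16.8 and 17.0 FPKM in jmj28-3, against 11.6 and 10.6 FPKM in WT, and MYB94 with 7.76 and 7.09 FPKM in jmj28-3, against 4.45 and 4.98 FPKM in WT (adjusted p = 0.017 and 0.037, limma). Of 13 tested suberin genes, 2 were called higher and 1 lower, with a median log2 change of -0.21. The elongase gene KCS20 and the reductase gene FAR1 were higher by 0.51 and 0.48 on the log2 scale (adjusted p = 0.0427 and 0.0368), and KCS2, an elongase gene close to KCS20 in sequence, fell by 0.52 (adjusted p = 0.0275). Both jmj28-3 libraries lay below both WT libraries in 9 of the 13, where 32.7% of all tested genes did so. The calls on MYB30, MYB94, FAR1 and KCS2 were lost in each of the 4 leave-outs. Leaving out WT replicate 2 or either jmj28-3 library ended that on KCS20. The calls on MYB94, FAR1, KCS2 and KCS20 were also lost with no filter and with no variance trend.

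Among 9 tested genes of systemic acquired resistance there were 2 risers and 0 fallers, where 4.18% of all tested genes were called higher and 3.79% lower. The first is AT5G48490, described above, and the salicylic acid receptor gene NPR3 (AT5G45110) was higher, with 13.8 and 13.7 FPKM in jmj28-3, against 6.66 and 7.23 FPKM in WT (log2 change 0.89, adjusted p = 0.00574, limma). NPR1, the coactivator receptor, had 10.4 and 11.02 FPKM in jmj28-3, against 9.91 and 10.6 FPKM in WT, and overlapped. NPR4 had 11.9 and 9.68 FPKM in jmj28-3, against 9.39 and 9.51 FPKM in WT, and was not called. The call on NPR3 was lost without either jmj28-3 library (adjusted p up to 0.0879).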

How the data were processed

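Polyadenylated RNA of seedlings was measured in 4 libraries, 2 of jmj28-3 and 2 of WT, each matched to its column by the labels, with 0 value columns unmatched. The authors deposited FPKM with 2 decimals. Per the submitters' processing notes the authors used TopHat, RSEM and edgeR with TAIR10, without versions or order. No source used here tells whether strand was counted, so reads of overlapping or antisense genes cannot be told apart. FPKM hold no reads, so no count model and no counting interval was used, and the number of reads behind a value is unknown.

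Genotypes were compared with limma 3.58.1 (R 4.3.3) on log2(FPKM + 1), for genes with a mean of at least 0.5 FPKM over the 4 libraries. Genotype was the only term, the prior variance followed a trend with level, and tests were two-sided with Benjamini-Hochberg adjustment over all 20232 tested genes at 0.05. Every log2 change is one of log2(FPKM + 1), which understates the change of low genes. Fold values are ratios of mean FPKM. The fit was checked on simulated data. Members and lists were chosen with earlier results of these data known. Named members are all called ones, the 10 most abundant, the 5 largest uncalled changes, those beside the filter and the DIR1 pair. From each list the rule names up to 4 called genes, or, with no call, the 2 of smallest p. Further genes were picked with values in view, as neighbours or relatives of these.

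Gene symbols, positions and sequences came from RefSeq TAIR10.1 by gene identifier, since the table holds no coordinates, and all 107 members were found. Coding sequences (longest isoform) were read with Biopython 1.88, and the cysteine pattern was searched in their translation. Words of 50 bases were taken from exons and sought on both strands of the 5 nuclear chromosomes. Each distinct word was counted as repeated if it occurred more than once there, also where the copies lay within the same gene. The read length is unknown here. Other settings tried were pseudocounts 0.1 and 0.5, testing unfiltered genes, a minimum mean of 2 FPKM, median-of-ratios scaling, rescaling to equal sums (TPM), no variance trend, replicate number as a block and leaving out each library. Same-numbered libraries share only a number.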

Additional observations from a re-analysis of the deposited data

How the results depend on the processing

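The counts of called members, 2 higher and 8 lower, stayed within 1.5 times under both other pseudocounts, a minimum mean of 2 FPKM, median-of-ratios scaling and TPM rescaling. With no filter 3 were lower, with no variance trend 1 was higher and 3 were lower, and with replicate number as a block 5 were lower, with the calls on AT1G48750, AT3G22570 and AT3G22600 lost (adjusted p = 0.114, 0.0754 and 0.0727). Leaving out each library gave 1 to 4 higher and 0 to 4 lower. The cause of these shifts was not tested, though a fit on 3 libraries has 1 residual degree of freedom. Same-numbered libraries did not deviate together (correlation of their deviations over genes -0.133), and a block with the numbers crossed, chosen after seeing the data, gave 8 higher and 12 lower among members, and 1158 and 1129 over all tested genes, against 846 and 767 without it. Of the 10 called members, 3 were called in all 8 settings besides the leave-outs, 1 in every leave-out and 4 in no leave-out, and none changed sign. Of 272 values of named members under alternatives, 228 kept their side of the threshold, 42 lost a call, 2 gained one and 0 of the called ones reversed. Scaling moved the median log2 change of all tested genes by 0.03 (median of ratios) and -0.0059 (TPM). Depth in reads is unknown, so members listed at 0 may be expressed below detection.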

Other observations

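Promoter windows of all 107 members, from 250 bases before to 50 after the annotated start in RefSeq TAIR10.1, were searched on both strands for short motifs. The W-box forms TTGACC and TTGACT were in 13.8% and 19.0% of the promoters of the 58 tested members, against 14.3% and 21.8% of those of all 19594 tested protein-coding genes. ACGTG, the core of abscisic acid response elements, was in 29.3% against 28.1% of those of the same tested genes. The G-box CACGTG, which contains ACGTG, was in 1 promoter of a tested member, that of AT1G73780, or 1.7%, against 8.8%. The evening element AAATATCT was in 6 promoters of tested members, or 10.3%, against 5.9%, and EARLI1, AT4G12500 and AT4G22517 were among them. The L1-box forms TAAATGCA and TAAATGTA, known from epidermal genes, were each in 1 promoter of a tested member, those of XYP1 (AT5G64080) and AT2G10940, or 1.7%, against 1.8% and 3.5%. Among the 8 members called lower, TTGACC was in the promoters of AT4G00165 and AT4G22666, and TTGACT in those of AT3G22570 and AT3G22600. ACGTG was in 3 of these 8 promoters, those of AT3G22570, AT4G00165 and AT5G46900. The G-box, the evening element and both L1-box forms were in none of these 8. TTGACT was also in the promoter of AT4G22485, called higher. Whether any motif is more frequent among called members was not tested. A match is a description and not a binding site.

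The superfamily was spread over all 5 chromosomes, with 23, 14, 16, 30 and 24 genes on chromosomes 1 to 5. Within 20 kb of another member lay 51 of the 107 genes, in 16 groups. Of the 58 tested members 32 lay in such groups, and so did 8 of the 10 called ones. The group of 5 genes from AT5G38160 to AT5G38197 on chromosome 5, within 25.6 kb, and the group of 3 from AT1G43665 to AT1G43667 on chromosome 1 were listed at 0 in all 4 libraries.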
